A study of Mus musculus with 20 samples.

Results

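The genes of the T cell receptor complex and of T cell subsets were followed in the diaphragm of mice 12 weeks after fibers were placed in the pleural cavity. The 10 genes were Cd3d, Cd3e, Cd3g, Cd247, Cd4, Cd8a, Cd8b1, Foxp3, Ctla4, and Icos, among 34797 gene names on the array. They were measured by 15 of the 55681 probes, and all 15 were among the 36930 probes tested, which were well above background, by the mark of the scanner software, on at least 4 of the 20 arrays.

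The mice were female C57Bl/6 animals, aged 8 weeks at injection, and every group received 100 μL of 0.5% bovine serum albumin in saline directly into the pleural cavity. The control mice received this vehicle alone, the SFA and LFA mice 25 μg of short or long amosite asbestos, and the NTS and NTL mice 5 μg of short or long carbon nanotubes, with 4 mice in each of the 5 groups. SFA was ground from the same amosite batch as LFA, NTS was a commercial product, and NTL came from an academic laboratory, so each fiber type is a single sample of its kind. RNA came from a frozen part of the diaphragm, and the labels name no dissection of lesions for these arrays, so RNA of muscle, lesion, and infiltrating cells may be mixed.

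The T cell receptor recognizes antigen fragments through its variable chains, which carry no signaling tail of their own. The CD3 chains (Cd3d, Cd3e, Cd3g) and the zeta chain (Cd247) pass the signal into the cell through motifs that the kinase Lck phosphorylates and that Zap70 then binds. CD4 and CD8, which consists of the products of Cd8a and Cd8b1, hold Lck close to the receptor and divide T cells into helper and cytotoxic subsets. Foxp3 is the transcription factor that defines regulatory T cells, Ctla4 is an inhibitory receptor that competes with CD28 for its ligands, and Icos is a costimulatory receptor that activated and regulatory T cells carry. In chronic inflammatory lesions, regulatory T cells are known for holding back the effector subsets.

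Each value below is a log2 intensity relative to the 75th percentile of its own array, so that a difference of 1 is a 2-fold difference. The 75th percentile ran from 294 to 996 intensity units, and 53.0% to 68.1% of the probes of an array were well above background. Muscle markers went with the labeled tissue, since the mean level of 10 skeletal muscle genes was between 6.15 and 8.09 above the 75th percentile on all 20 arrays. The mean level of 5 liver and lung genes varied widely within groups. It ran from −1.82 to 3.03 in control, −2.96 to 4.80 in SFA, and −2.45 to 4.93 in LFA mice. In NTS mice it ran from −1.72 to 6.07 and in NTL mice from −0.997 to 3.17. Whether other tissue was present on some arrays was not tested. One array of each group, 5 in all, stood apart in the balance between probes near the 5′ and the 3′ end of long transcripts. These are control replicate 2, SFA replicate 1, LFA replicate 3, NTS replicate 4, and NTL replicate 2, and the values without them are given beside the results that they touch. Levels of different probes are not comparable in absolute terms, because each probe has its own brightness, so all comparisons are between mice for the same probe.

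Several of these genes were measured at more than one place in the transcript, and the probes did not behave alike, so the sequences that the results turn on are shown first. Positions and sequences are those of the array files (NCBI37), whose exons and untranslated parts were not assigned here. The Cd3d probe, the junction probe of Cd247, and the inner Cd4 probe are shown whole, with 60 bases each. The Cd3d probe matched chr9:44794171-44794402 on the plus strand, a stretch of 232 bases that is longer than the probe, as for a probe across a splice junction. The Cd247 probe likewise matched chr1:167786567-167787585 on the plus strand, a stretch of 1019 bases, and the inner Cd4 probe chr6:124817706-124817765 on the minus strand.
Cd3d: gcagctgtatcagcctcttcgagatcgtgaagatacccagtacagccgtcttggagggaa
Cd247, junction probe: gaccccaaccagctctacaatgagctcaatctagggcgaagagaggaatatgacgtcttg
Cd4, inner probe: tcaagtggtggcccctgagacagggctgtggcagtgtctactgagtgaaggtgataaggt

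For the others the last 30 bases are given, with the polyadenylation signal AATAAA in capitals where it occurs. They are the 3′-end probe of Cd4 (chr6:124814711-124814770, minus strand), which begins at base 3035 of the transcript where the inner probe begins at base 1242, Cd3e (chr9:44806828-44806887, minus strand), Cd3g (chr9:44777868-44777927, minus strand), Foxp3 (chrX:7172301-7172360, plus strand), and the 3 Icos probes, all on the plus strand. Of these the brightest lies at chr1:61057105-61057164 and begins at base 3194 of its transcript, the second at chr1:61055103-61055162 and base 1192, and the dimmest at chr1:61052582-61052641 and base 750 of a different transcript model.
Cd4, 3′-end probe: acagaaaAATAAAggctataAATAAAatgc
Cd3e: taatgcaaaaggcAATAAAgtgtattggct
Cd3g: agaactgtcaaagaaattttggtctttttt
Foxp3: tgcctagtagtgagcataaagtccctgtgt
Icos, brightest probe: aacagccAATAAAtatgctttgtgagagaa
Icos, second probe: gactctagctgatcactgcttcagggctta
Icos, dimmest probe: ctgtagaatattaaaaattatgtttgtgaa

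AATAAA, searched on the strand of the probe alone, was present in 3 of the 15 probes and in 11.5% of the 36930 tested probes of the same length. The 3 are the Cd4 3′-end probe, the Cd3e probe, and the brightest Icos probe.

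Icos rose in LFA and NTL mice and Foxp3 in NTL mice, and the CD3 chains, zeta chain, and coreceptors did not pass the test in any comparison. A gene was called when its brightest probe changed at least 2-fold with an adjusted p under 0.05 in limma's test, adjusted by Benjamini-Hochberg over the 36930 probes. In LFA mice 1 of the 10 genes was called, Icos, where 4.54% of 25512 genes were (2.75% higher and 1.78% lower). In NTL mice 2 of the 10 were called, Icos and Foxp3, where 7.83% of the genes were (4.35% higher and 3.47% lower). Between NTL and NTS mice the same 2 genes were called, against 8.49% of all genes. No member was called in SFA or NTS mice against control, where 0% of the genes were called. No member was under an unadjusted p of 0.05 there, beside 843 and 1288 of the 36930 probes.

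The median change of the 10 genes was 0.55 in LFA mice, where that of all genes was −0.24, and 1.22 in NTL mice, where that of all genes was also −0.24. In SFA mice it was 0.28 beside −0.08, and in NTS mice 0.04 beside −0.07. Changes above 0 were found for 8 of the 10 genes in LFA mice, 9 in NTL mice, 7 in SFA mice, and 5 in NTS mice. The LFA and NTL comparisons share the same 4 control arrays and are not independent of each other. In bulk tissue, a change in the number of cells of a type and a change in RNA per cell cannot be told apart.

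**Figure D1:**
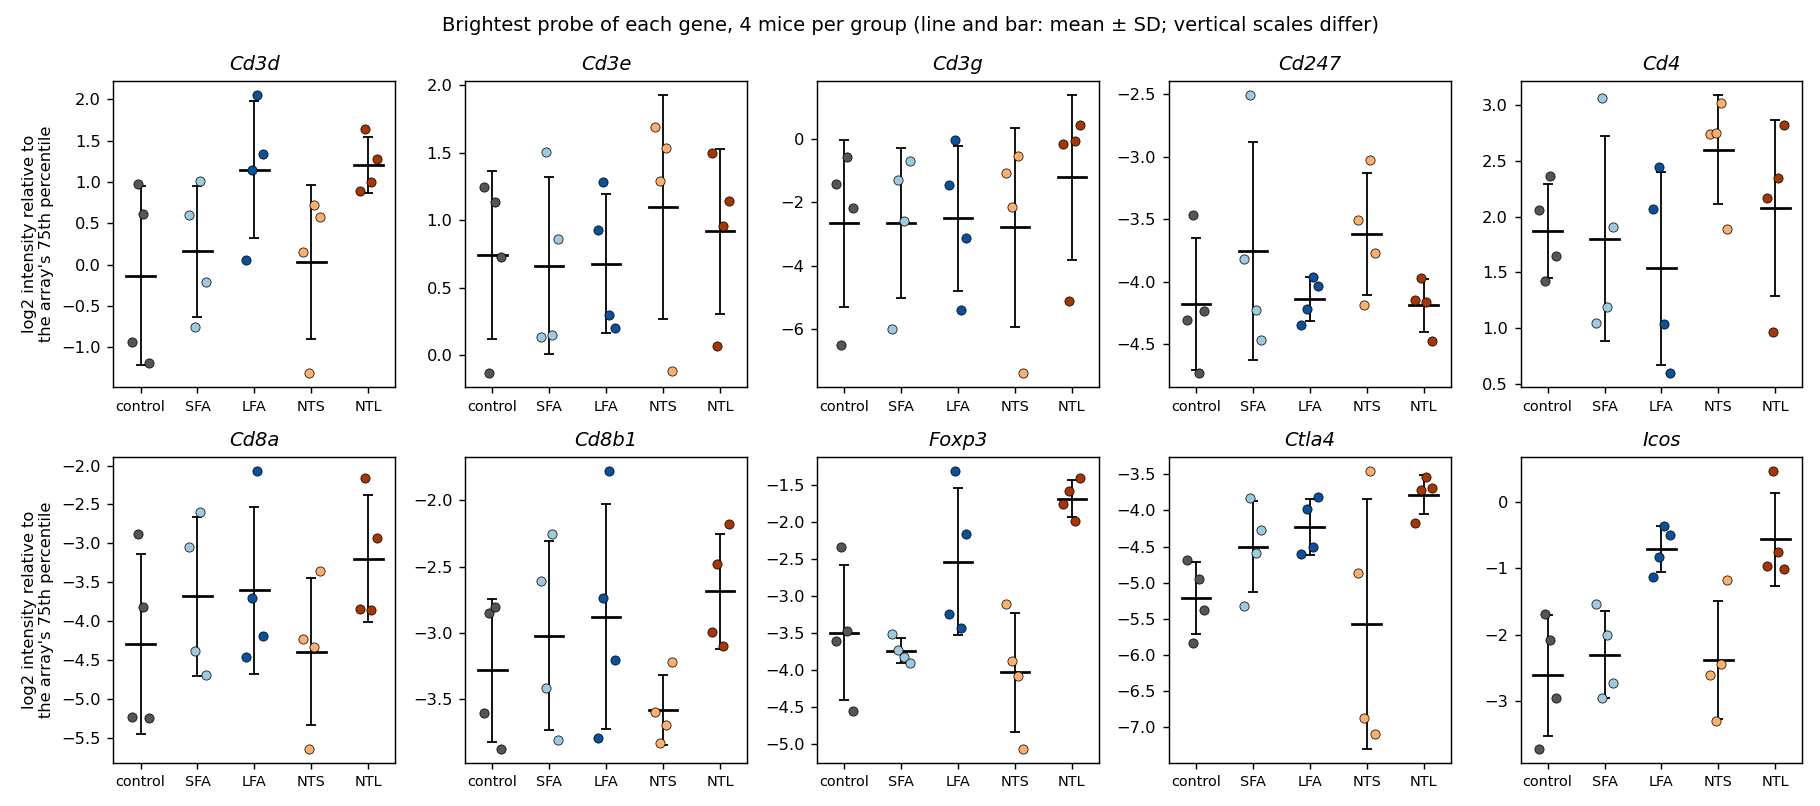
The log2 intensity relative to the array's 75th percentile (vertical axes, separate scales) of each of the 10 genes by its brightest probe, as 4 points per group with the mean and SD. The 4 LFA and 4 NTL points of Icos lie above the 4 control points, the 4 NTL points of Foxp3 lie between −1.997 and −1.41, above all control points, and each Cd3g panel column has 1 point at −5.09 or lower.

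Icos was the member called in both long-fiber groups. Its brightest probe was at −3.72, −1.68, −2.08, and −2.95 in the control mice. In the LFA mice it was at −1.14, −0.83, −0.37, and −0.50, all above the highest control mouse. In the NTL mice it was at −0.96, 0.47, −0.76, and −1.01, again all above the controls. The SFA mice (−1.53, −2.96, −2.0002, −2.73) and the NTS mice (−2.61, −3.31, −2.44, −1.18) lay mostly within the control range, with 1 mouse of each above it. The change against control was 1.90 ± 0.49 (SE, n = 4 and 4, limma adjusted p = 0.0375), or 3.74-fold, in LFA mice. In NTL mice it was 2.05 ± 0.49, or 4.13-fold (limma adjusted p = 0.0168). In SFA and NTS mice it was 0.31 and 0.23, with limma adjusted p-values of 0.9989 and 0.9999.

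The second Icos probe was at −4.52, −4.26, −3.01, and −3.69 in control mice and at −3.31, −2.03, −2.67, and −2.12 in LFA mice, where 3 of 4 lay above all controls. It rose by 1.34 ± 0.35, or 2.53-fold, in LFA mice (limma adjusted p = 0.0375). In NTL mice it was at −2.52, −2.21, −1.88, and −2.66 and rose by 1.55 ± 0.35, or 2.93-fold (limma adjusted p = 0.0107). The dimmest probe was well above background on 0 control arrays, 3 LFA arrays, and 4 NTL arrays, so only a bound can be given. It was at least 1.38-fold higher in NTL than in control mice (limma adjusted p = 0.0263) and at least 1.11-fold higher in LFA mice, where it was not called (limma adjusted p = 0.101). The brightest and the second probe were thus called in both groups.

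The Icos change in LFA mice was near the threshold. It kept its direction in all 33 alternative settings, between 1.26 and 2.21, with adjusted p-values between 0.0111 and 0.104. Leaving out control replicate 1 (1.53, limma adjusted p = 0.104), control replicate 4 (1.79, limma adjusted p = 0.0835), or any 1 of the LFA arrays (1.79 to 2.05, limma adjusted p = 0.0554 to 0.0890) ended the call. With the normexp background correction the change was smaller but still called, at 1.26 in LFA mice (limma adjusted p = 0.0344) and 1.37 in NTL mice (limma adjusted p = 0.0159). Within the 3 slides on which the arrays were hybridized, the LFA change was 2.52 (2 LFA arrays and 1 control array), 1.56 (1 and 2), and 1.26 (1 and 1). With the slide as a block it was 1.76 ± 0.50 (limma adjusted p = 0.0723). The NTL change of Icos was 1.74 (1 NTL array and 2 control arrays) and 1.65 (3 and 1) within the 2 slides that hold both groups. It stayed called with the slide as a block (2.02 ± 0.53, limma adjusted p = 0.0453). It was not called without control replicate 1 (1.68, limma adjusted p = 0.0566) or without NTL replicate 2 (1.70, limma adjusted p = 0.0559).

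Foxp3 was at −3.61, −2.34, −3.48, and −4.55 in control mice. In the NTL mice it was at −1.77, −1.58, −1.997, and −1.41, so that the lowest NTL mouse lay above the highest control mouse. In the LFA mice it was spread between both ranges, at −3.25, −1.31, −3.44, and −2.17, with 2 of 4 above all controls. The change was 1.80 ± 0.48 in NTL mice, or 3.49-fold (n = 4 and 4, limma adjusted p = 0.0290). In LFA mice it was 0.95 ± 0.48 and did not pass (limma adjusted p = 0.237). The difference between LFA and NTL mice was −0.85 ± 0.48, with a 95% interval from −1.87 to 0.17 (limma adjusted p = 0.9999), so an LFA change equal to that of NTL was inside the interval. The doses of the 2 fibers differ, and material and dose cannot be told apart.

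The SFA mice, at −3.51, −3.72, −3.82, and −3.90, and the NTS mice, at −3.11, −3.88, −4.08, and −5.06, were within or below the control range for Foxp3. Within the slides that hold both groups, the NTL change of Foxp3 was 1.21 and 1.81, and the LFA change was 1.75, −0.27, and 2.16. These rest on the same few arrays as the within-slide changes of Icos. With the slide as a block the NTL change was 1.51 ± 0.46 and no longer called (limma adjusted p = 0.0786). It was also not called without any 1 of control replicates 1, 3, and 4 and NTL replicates 1, 2, and 4, at 1.45 to 1.83 (limma adjusted p = 0.0530 to 0.0878), and with the normexp background correction, at 0.92 (limma adjusted p = 0.0594). Without the 5 arrays of low 5′ to 3′ balance it was 2.15 ± 0.44 in NTL mice (limma adjusted p = 0.0161) and 1.64 ± 0.44 in LFA mice, where it then passed (limma adjusted p = 0.0456, n = 3 and 3).

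Ctla4 was dim, well above background on 1 control, 3 SFA, 4 LFA, 1 NTS, and 4 NTL arrays. It was at −4.69, −5.83, −4.94, and −5.38 in control mice, at −4.60, −3.98, −4.50, and −3.82 in LFA mice, and at −4.17, −3.72, −3.54, and −3.69 in NTL mice. Both long-fiber groups lay wholly above the control mice. The change was 0.98 ± 0.59 in LFA mice (limma adjusted p = 0.312) and 1.43 ± 0.59 in NTL mice (limma adjusted p = 0.145), and neither passed. The values of SFA mice lay between −5.32 and −3.83, and those of NTS mice reached from −7.09 to −3.45, the widest range of any group.

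**Figure D2:**
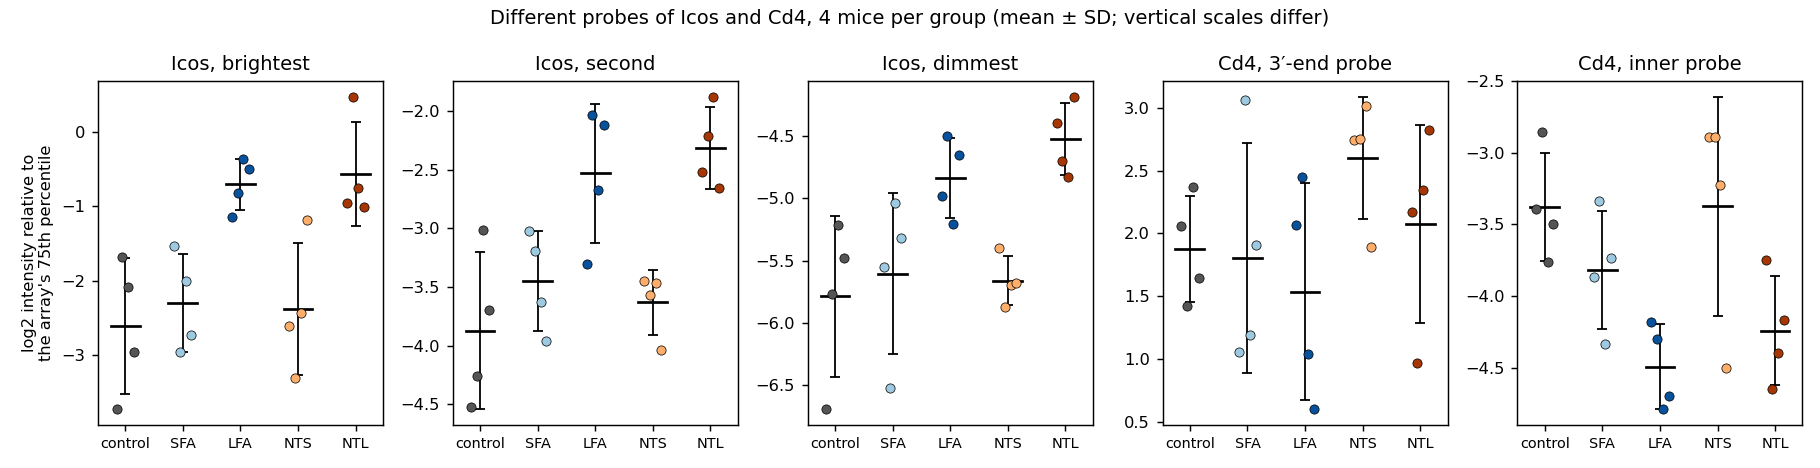
The log2 intensity relative to the array's 75th percentile (vertical axes, separate scales) of the 3 Icos probes and the 2 Cd4 probes, as 4 points per group with the mean and SD. The means of the long-fiber groups are above that of control for the brightest and the second Icos probe, while the inner Cd4 probe is lower in the LFA and NTL groups and the 3′-end Cd4 probe overlaps across all groups.

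The CD3 chains gave 3 different pictures. Cd3d was at −0.94, 0.97, 0.61, and −1.19 in control mice, at 0.06, 1.15, 2.05, and 1.33 in LFA mice, and at 0.89, 1.64, 1.002, and 1.28 in NTL mice. In each long-fiber group 3 of 4 mice lay above all controls. The change was 1.29 ± 0.56 in LFA mice, or 2.44-fold, and 1.34 ± 0.56 in NTL mice, or 2.53-fold, with limma adjusted p-values of 0.173 and 0.152. SFA and NTS mice overlapped the control mice, with changes of 0.30 and 0.17.

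Cd3e showed no such shift, with changes of −0.06 ± 0.45 in LFA mice and 0.17 ± 0.45 in NTL mice and group means between 0.66 and 1.10. Cd3g had the widest spread of the members. Its control values were −1.41, −6.49, −0.56, and −2.18, its LFA values −1.46, −0.04, −5.38, and −3.13, and its NTL values −0.14, −5.09, −0.06, and 0.45. One mouse of each group was far below the rest, and on that array the probe was not well above background. The pooled SD between mice of a group was 2.62, larger than that of 98.8% of the tested probes, whose median was 0.57. The changes of Cd3g, 0.16 ± 1.70 in LFA mice and 1.45 ± 1.70 in NTL mice, were within this spread.

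The zeta chain gene Cd247 was even across groups, between −4.73 and −2.50 over the 20 mice, with changes of 0.04 in LFA mice and −0.01 in NTL mice. Its junction probe ranged from −6.60 to −3.47 and was well above background on 14 of the 20 arrays.

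**Figure D3:**
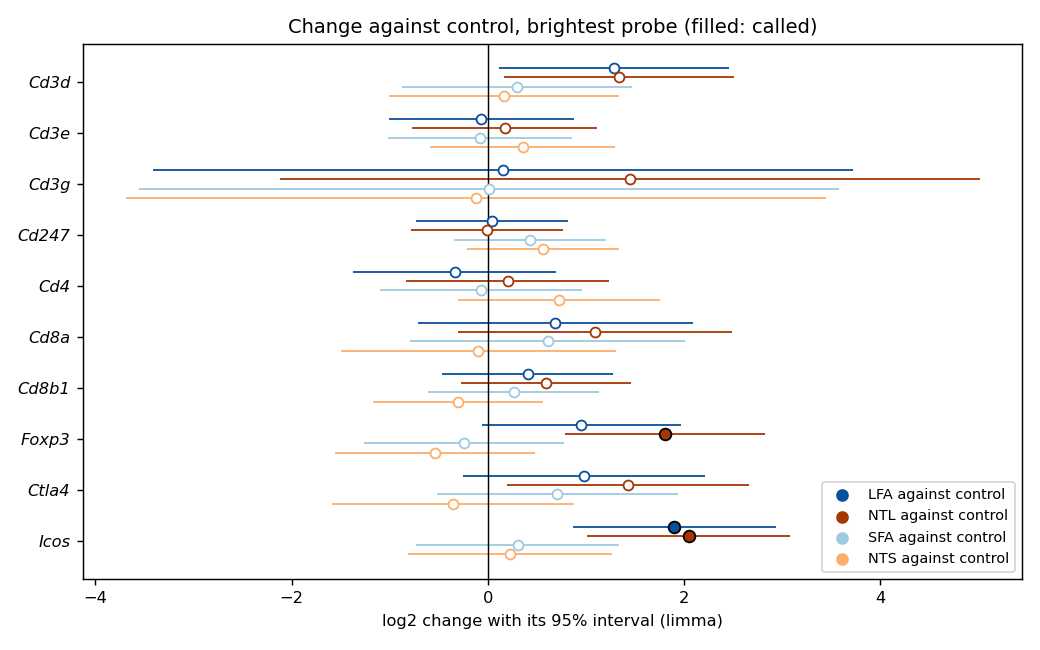
The log2 change against control (horizontal axis) with its 95% interval for each of the 10 genes in SFA, LFA, NTS, and NTL mice, from limma's fit over the 20 arrays, with filled points for called changes. The filled points are Icos in LFA and NTL mice and Foxp3 in NTL mice, and the intervals of Cd3g are the widest.

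The coreceptor genes did not pass the test. Cd8a changed by 0.69 ± 0.67 in LFA mice and by 1.09 ± 0.67 in NTL mice, and Cd8b1 by 0.41 ± 0.41 and 0.60 ± 0.41, with limma adjusted p-values between 0.343 and 0.565. Cd8b1 was at −2.99, −2.48, −3.10, and −2.18 in NTL mice and at −3.59, −3.83, −3.70, and −3.22 in NTS mice. All 4 NTL mice were thus above the NTS mice, and the difference of 0.90 ± 0.41 did not pass (limma adjusted p = 0.184).

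The 3′-end probe of Cd4 changed by −0.34 ± 0.49 in LFA mice and 0.20 ± 0.49 in NTL mice. The inner probe went the other way from Icos. It was at −3.39, −2.86, −3.76, and −3.50 in control mice, at −4.18, −4.30, −4.79, and −4.70 in LFA mice, and at −3.75, −4.65, −4.39, and −4.17 in NTL mice. All 4 LFA mice and 3 of 4 NTL mice lay below the control mice. The change of −1.12 ± 0.34 in LFA mice did not pass (limma adjusted p = 0.0679), and neither did that of −0.86 ± 0.34 in NTL mice (limma adjusted p = 0.131). The array carries 10 spots of the inner Cd4 probe and 10 of the brighter Cd8a probe. Among these spots the median SD was 0.20 for both, against 0.48 and 1.01 between mice of a group, so the spread between mice was larger than the spread within an array.

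Fiber length was compared within each material. Foxp3 was 2.34 ± 0.48 higher in NTL than in NTS mice, or 5.07-fold, with all 4 NTL mice above the NTS mice (limma adjusted p = 0.00534). Icos was 1.82 ± 0.49 higher, or 3.53-fold, again without overlap (limma adjusted p = 0.0282). Its second probe was 1.31 higher (limma adjusted p = 0.0249) and its dimmest at least 1.33-fold higher (limma adjusted p = 0.0403). Ctla4 was 1.79 ± 0.59 higher, with overlapping groups (limma adjusted p = 0.0644). Only slide 2 holds both NTL and NTS mice, with 1 NTL and 2 NTS arrays. The differences within it were 1.73 for Foxp3 and 1.998 for Icos. All other NTL arrays were on slide 3, which holds no NTS array, so nanotube length and slide cannot be fully told apart. With the slide as a block neither gene passed (limma adjusted p = 0.0857 and 0.121). With the normexp background correction Foxp3 was 0.98 higher (limma adjusted p = 0.0338), under 2-fold and so not called, and Icos 1.19 higher (limma adjusted p = 0.0254). The Icos difference was not called without NTS replicate 1, 2, or 3 or NTL replicate 2, at 1.48 to 1.80 (limma adjusted p = 0.0628 to 0.0983).

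Between LFA and SFA mice, 0 of the 10 genes were called, where 1.45% of all genes were. Beside 4618 of the 36930 probes, 2 members were under an unadjusted p of 0.05. These were Icos, 1.60 ± 0.49 higher in LFA mice (limma adjusted p = 0.171), and Foxp3, 1.198 ± 0.48 higher (limma adjusted p = 0.311), both with all 4 LFA mice above the SFA mice. Without the 5 arrays of low 5′ to 3′ balance, the brightest Icos probe was 1.74 ± 0.39 higher and passed (limma adjusted p = 0.0426), where 1.96% of the probes were called. The second and the dimmest Icos probe did not pass there (limma adjusted p = 0.183 and 0.273).

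The difference between the length effects of asbestos and nanotubes was tested directly. It was −0.22 ± 0.70 for Icos, −1.14 ± 0.68 for Foxp3, and −1.51 ± 0.83 for Ctla4, all with a limma adjusted p of 0.9999. None of the 10 genes was called between LFA and NTL mice or in the difference of length effects, where 0% of all genes were. None was under an unadjusted p of 0.05, beside 572 and 1273 of the 36930 probes. The 95% interval of the LFA to NTL difference of Icos, from −1.18 to 0.89, reaches past a 2-fold difference on 1 side.

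The subset genes were also set against the CD3 chains of the same mouse, as the value of each gene minus the mean of Cd3d, Cd3e, and Cd3g. Of 12 exact 2-sided permutation tests of 4 against 4 mice, where the smallest possible p is 0.0286, none passed. After adjustment over the 12 tests, a single gene at this smallest p could not pass, so they cannot decide about a single gene. The CD3 mean also holds the spread of Cd3g (pooled SD between mice 2.62). The lowest p was that of Cd4 in NTL mice, at −0.79 relative to control (exact permutation p = 0.0571, adjusted 0.514). Icos was 1.44 higher relative to CD3 in LFA mice (exact permutation p = 0.171, adjusted 0.686) and 1.06 higher in NTL mice (exact permutation p = 0.371, adjusted 0.800). Relative to Cd3d alone, which was tried after the values of Cd3g were known, Cd8b1 was lower by −0.88 in LFA mice with all 4 below the controls (exact permutation p = 0.0286, adjusted 0.274).

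The 5 arrays named above gave Cd3g its spread. Their balance is given as an index, the log2 value of the 5′-most probe minus that of the 3′-most probe, averaged over 1964 transcripts without the members. Those 5 arrays lay more than 0.3 below the mean of their group. The index had no clear gap in SFA mice (−2.17, −1.84, −1.55, and −1.16) or LFA mice (−2.10, −1.81, −1.55, and −1.40). On the 5 arrays Cd3g was between −7.38 and −5.09, and on the other 15 arrays between −3.13 and 0.45, without overlap. Their share of probes well above background was 53.0% to 60.0%, against 58.7% to 68.1% on the others. As deviations from the group mean, Cd3g was at −4.60 to −2.87 on these arrays and Cd3e at −1.22 to −0.38. The 3′-end probe of Cd4 at −1.11 to −0.45 and the junction probe of Cd247 at −1.82 to −0.30 were below their group means on all 5 as well. Above their group means on all 5 were Cd3d at 0.44 to 1.11, Cd8a at 0.63 to 1.54, Cd8b1 at 0.21 to 1.10, and the brightest Icos probe at 0.34 to 1.20. Foxp3 did not follow them, at −1.03 to 1.16. The 5 arrays lie on all 3 slides, and the part of RNA quality in these values was not tested.

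Over all 20 arrays, deviations from the group mean rose with the index for Cd3g (r = 0.93) and the Cd247 junction probe (0.88). So did those of Cd3e (0.86) and the Cd4 3′-end probe (0.71). They fell with it for the brightest Icos probe (−0.85), Cd8a (−0.77), Cd3d (−0.61), and Cd8b1 (−0.59). By r, each of these passed (permutation p adjusted to 0.000800 to 0.0374). The second and the dimmest Icos probe, at −0.004 and 0.09, did not. Because the 5 arrays of lowest index could carry it, the relation with the index was also computed within the 15 others. There it was r = 0.54 and rho = 0.50 for Cd3g (permutation p = 0.104, adjusted 0.540), and none of the 15 probes passed. The r of Cd3g without the 2 farthest arrays was 0.37. Without the 5 arrays, the brightest Icos probe changed by 2.10 ± 0.39 in LFA mice (limma adjusted p = 0.0121, n = 3 and 3), where 5.62% of the probes were called. In NTL mice it changed by 2.01 ± 0.39 (limma adjusted p = 0.0126), where 4.86% were. The second Icos probe, at 1.26 ± 0.41 and 1.39 ± 0.41, then lost its call in both groups (limma adjusted p = 0.0807 and 0.0654). The dimmest was not called either (limma adjusted p = 0.127 and 0.0794). Cd3g changed by −0.16 ± 0.72 and 1.46 ± 0.72 and was not called.

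With the index as a covariate over all 20 arrays, Cd3g was called at 2.20 ± 0.68 in LFA mice (limma adjusted p = 0.0478) and 2.60 ± 0.66 in NTL mice (limma adjusted p = 0.0136). Ctla4 was then called in NTL mice as well, at 1.63 ± 0.53 (limma adjusted p = 0.0441), while 7.37% and 11.3% of all probes were called in LFA and NTL mice. The brightest Icos probe stayed called, at 1.38 ± 0.29 in LFA mice (limma adjusted p = 0.0117) and 1.75 ± 0.29 in NTL mice (limma adjusted p = 0.000935). In LFA and NTL mice, Cd3d was then at 0.86 and 1.10 and Cd8a at 0.03 and 0.73, not called. The mean index was −1.37 in control, −1.68 in SFA, −1.72 in LFA, −1.24 in NTS, and −1.57 in NTL mice, with SDs of 0.31 to 0.50. Leaving out the 5 arrays, as above, gave no call of Cd3g or Ctla4.

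**Figure D4:**
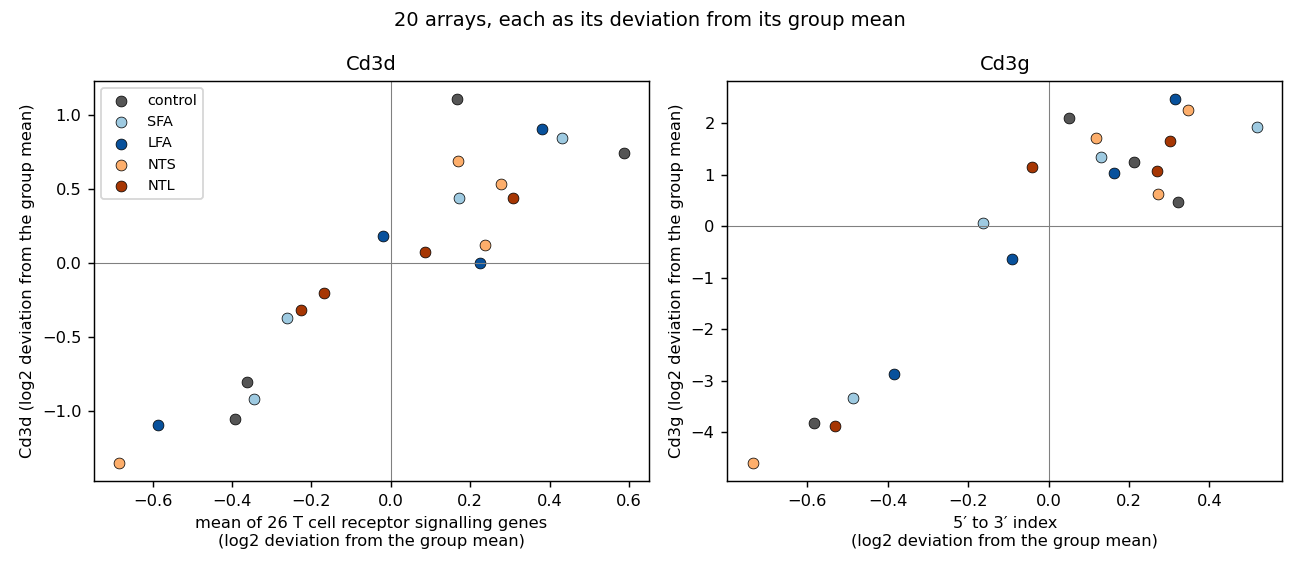
Deviations from the group mean on the 20 arrays, for Cd3d against the mean of the T cell receptor signaling genes and for Cd3g against the 5′ to 3′ index (all axes log2). Cd3d rises with the signaling genes, and the 5 arrays with the lowest index hold the 5 lowest Cd3g values, between −4.60 and −2.87.

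By their brightest probes, Cd3d, Cd8a, Cd8b1, and Icos varied together with the other T cell receptor signaling genes from mouse to mouse within a group. Over the 20 arrays, the deviation of Cd3d from its group mean followed the mean deviation of 26 signaling genes with r = 0.92 and rho = 0.87 (permutation within groups, p = 6.0e-05, adjusted 0.000800 over 30 relations). For Cd8a it was r = 0.86 and rho = 0.87, for Cd8b1 r = 0.82 and rho = 0.80, both with a permutation p adjusted to 0.000900, and for Icos r = 0.74 and rho = 0.79 (permutation p adjusted to 0.00636). Without the 2 farthest arrays r was 0.89, 0.84, 0.83, and 0.71 in this order. Within slide 2 it was 0.92, 0.88, 0.80, and 0.77, and within slide 3 it was 0.94, 0.85, 0.86, and 0.71, while slide 1 held too few arrays, 5. On the 15 arrays without low 5′ to 3′ balance r was 0.96, 0.92, 0.82, and 0.84. Foxp3 with r = 0.23, Ctla4 with 0.13, Cd3e with −0.39, Cd3g with −0.32, and the Cd4 3′-end probe with −0.33 did not pass. On the 15 arrays r was 0.59, 0.46, −0.12, 0.30, and −0.07 for these in the same order, with no test. The second and the dimmest Icos probe and the second Cd8a probe, at r = 0.36, 0.45, and 0.33, did not pass either. Their permutation p was adjusted to 0.271, 0.161, and 0.265. On the 15 arrays these 3 probes had r = 0.52, 0.63, and 0.85, with no test.

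The named genes most like Cd3d in these deviations, of 15151 ranked over the 20 arrays, were the chemokine Ccl5 (r = 0.98), the kinase Lck (0.97), Limd2 (0.96), and Hcst (0.96), an adaptor of lymphocyte receptors. For Cd8a they were the T cell kinase Txk (0.96), Ms4a4b (0.96), the adaptor Skap1 (0.95), and the transcription factor Tbx21 (0.95). Foxp3 was most like Limk1 (0.93), Agpat4 (0.92), P2ry6 (0.92), and Gpsm3 (0.91), and Icos most like Rassf5 (0.95), Glyr1 (0.94), Donson (0.94), and Uggt1 (0.94). The mean of Cd3d, Cd3e, and Cd3g, to which Cd3g adds most of the spread, was most like Rnu1b6 (0.95), Soat1 (0.93), Cd53 (0.92), Cd226 (0.91), Rrp12 (0.91), Sema4b (0.91), Ttc5 (0.91), and Dhx9 (0.91). All these points share arrays, and so share their RNA quality and brightness.

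The other genes of the receptor pathway were taken from lists. Beside the counts of all lists, 4.54% of 25512 genes were called in LFA mice (2.75% higher) and 7.83% in NTL mice (4.35% higher). Of 26 tested genes of T cell receptor signaling, 2 rose and 1 fell in LFA mice and 5 rose and 1 fell in NTL mice, with median changes of 0.70 and 0.77. The adaptor Lcp2 rose by 1.65 ± 0.42 and 1.55 ± 0.42 in LFA and NTL mice, and Vav1, an exchange factor downstream of it, by 1.43 ± 0.37 and 1.76 ± 0.37. The Lcp2 call was lost in 11 and 10 of 31 alternative settings. That of Vav1 was lost in 10 of 32 in LFA mice and in 0 of 32 in NTL mice. The kinase Lck of the same list, at 0.98 and 1.18, was not called in either group. Whether the called genes changed in T cells or in other cells of the tissue was not tested. Ptprc, the phosphatase CD45 of all leukocytes, rose by 1.91 ± 0.39 in NTL mice and stood at 1.30 ± 0.39 in LFA mice, where it was not called. Prkcq, a protein kinase C of T cells that skeletal muscle also expresses, fell (−1.33 ± 0.30 and −1.21 ± 0.30).

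Costimulatory and checkpoint genes had the highest counts of the T cell lists, which were chosen with earlier results of these data known. Of 21 tested, 5 rose in LFA mice and 8 in NTL mice, 0 fell, and the median changes were 0.95 and 1.17. The inhibitory receptor Pdcd1 (PD-1) rose by 2.56 ± 0.49 and 2.84 ± 0.49 with limma adjusted p-values of 0.00809 and 0.00183. Tnfrsf18 (GITR), which regulatory T cells carry, rose by 1.49 ± 0.33 and 1.79 ± 0.33, Havcr2 (TIM-3), also found on macrophages, by 1.34 ± 0.33 and 1.82 ± 0.33, and Cd86, a ligand of CD28 and CTLA-4 on antigen-presenting cells, by 1.55 ± 0.43 and 1.501 ± 0.43. The Cd86 changes were near the threshold (limma adjusted p = 0.0488 and 0.0393), and the call was lost in 20 of 32 alternative settings in LFA mice and in 11 of 32 in NTL mice. The Havcr2 call was lost in 10 of 32 in LFA mice and in 1 of 32 in NTL mice, and that of Tnfrsf18 in 5 and 0 of 32.

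Of 17 regulatory T cell associated genes, 3 rose in LFA mice and 5 in NTL mice. Tnfrsf18, named above, is counted in this list as well. Il10, an anti-inflammatory cytokine that macrophages also make, was well above background on 0 control arrays. The bound on its rise was at least 2.02-fold in LFA mice and at least 2.52-fold in NTL mice (limma adjusted p = 0.00558 and 0.000848). In each group the Il10 call was lost in 1 of 31 alternative settings. There the log2 change was 0.15 in LFA mice and 0.24 in NTL mice (limma adjusted p = 0.638 and 0.440), below these bounds. Prdm1, a regulator of effector differentiation, rose by 1.46 ± 0.38 and 1.94 ± 0.38. Its call was lost in 11 of 32 alternative settings in LFA mice and in 0 of 32 in NTL mice. The chemokine receptor Ccr4 rose by 2.21 ± 0.59 in NTL mice and stood at 1.72 ± 0.59 in LFA mice, not called. Its NTL call was lost in 8 of 31 alternative settings.

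Of 16 helper subset genes, 2 rose and 0 fell in each of the long-fiber groups. Stat4, which transmits interleukin-12 signals, rose by 1.39 ± 0.36 in LFA mice and 1.44 ± 0.36 in NTL mice, and its call was lost in 13 and 7 of 32 settings. The Th2 cytokines Il4 and Il13 were each well above background on 0 control arrays, so only bounds can be given. Il4 was at least 1.86-fold higher in LFA mice (limma adjusted p = 0.0363) and was not called in NTL mice (limma adjusted p = 0.110). Its LFA call was lost in 12 of 31 alternative settings. Il13 was at least 1.45-fold higher in NTL mice (limma adjusted p = 0.00372) and was not called in LFA mice (limma adjusted p = 0.0992). The NTL call of Il13 was lost in 1 of 31 alternative settings, with a log2 change of 0.05 (limma adjusted p = 0.890).

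Of 17 genes of naive T cells and homing, 0 were called in LFA mice and 4 in NTL mice, among them the lymph node homing receptor Ccr7 at 1.74 ± 0.42, the chemokine Cxcl10 at 1.99 ± 0.52, the integrin chain Itga4 at 1.37 ± 0.31, and Cxcl16 at 1.28 ± 0.30. Of 14 cytotoxic and natural killer genes, 2 rose in LFA mice and 3 in NTL mice. Klrg1, a receptor of late effector cells, rose by 2.14 ± 0.39 and 2.60 ± 0.39, and the granule protease Gzmb by 1.85 ± 0.36 and 1.95 ± 0.36. Fasl was at least 2.29-fold higher in NTL mice, and its call was lost in 8 of 31 alternative settings. Only 2 of 15 T cell receptor chain segments were tested, and 0 were called.

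**Figure D5:**
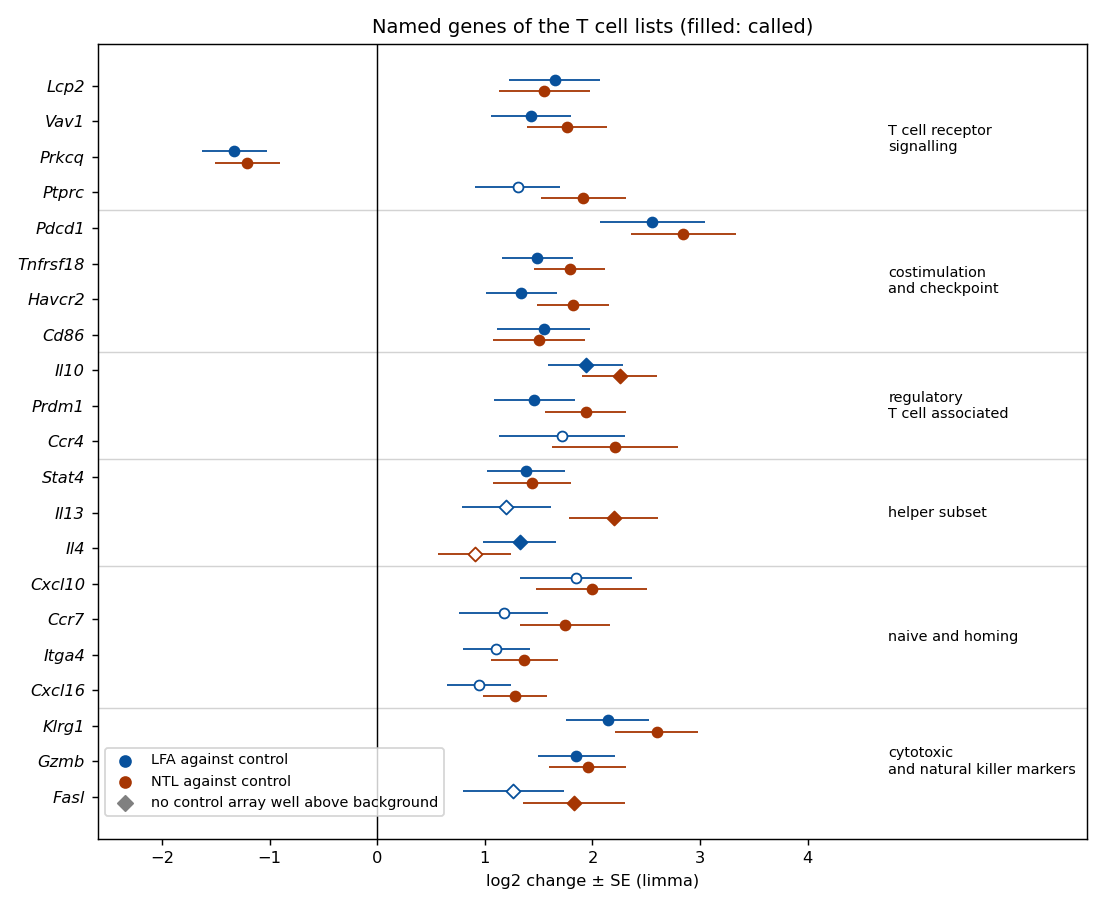
The log2 change against control, with its SE, in LFA and NTL mice for the genes named from the T cell lists (filled points are called, and diamonds mark genes that were well above background on 0 control arrays). Pdcd1 and Klrg1 lie above 2 in both groups, and Prkcq lies to the left of 0 in both.

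The markers of other cell types moved with the same groups. Of 12 macrophage markers, 8 rose in LFA and 8 in NTL mice, with median changes of 1.94 and 2.35, and all 12 were tested. Their mean level was 0.99 to 1.31 in control mice, 2.51 to 3.21 in LFA mice, and 2.96 to 3.28 in NTL mice, without overlap, while SFA and NTS mice lay between 0.88 and 1.41. Marco, a scavenger receptor of macrophages, rose by 3.92 ± 0.46 and 3.56 ± 0.46. Of 10 muscle markers, 1 fell in LFA and 2 in NTL mice, and their mean level was 7.56 to 7.69 in control mice, 6.39 to 6.83 in LFA mice, and 6.15 to 6.46 in NTL mice. These values moved together with Icos and Foxp3, and their part in those changes was not tested. The mean level of the 26 T cell receptor signaling genes was −0.94 to 0.04 in control mice, −0.36 to 0.61 in LFA mice, and 0.11 to 0.64 in NTL mice, where the NTL mice alone were all above the controls.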

How the data were processed

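RNA of a frozen part of the diaphragm was labeled with Cy3 by the authors, hybridized to Agilent 8x60K mouse arrays, and read with Feature Extraction 10.7.3.1. The deposited scanner files give each spot's background-subtracted intensity. A second set of deposited values, on the log2 scale and normalized by the authors in GeneSpring, holds 1 mean per group and no value per sample, and served as an alternative for the size of changes only.

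Of 59305 noncontrol spots, 92 to 204 on an array carried the outlier mark and were dropped, and 0 were saturated. Spots of 1 probe were averaged into 55681 probes. From each log2 intensity the array's own 75th percentile was subtracted. Arrays correlated with each other at 0.865 to 0.986, and none repeated another. A probe was tested when well above background on at least 4 of 20 arrays. One linear model with a mean for each of the 5 groups was fitted with limma 3.58.1 in R 4.3.3 (with the data.table package, version 1.17.8), and the call needed both a 2-fold change and an adjusted p (Benjamini-Hochberg) under 0.05. A gene is represented by its probe with the highest mean. Where no array of a group was well above background, the fold is a bound, set against the lowest signal that was. Such a bound holds for the main processing only. Python 3.11.15 with numpy 2.4.6, pandas 2.3.3, and matplotlib 3.10.9 read the files and drew the figures. The steps were tested on simulated data. The number of arrays limits the precision.

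The members and lists were chosen with earlier results of these data known. All 10 members are named, and from each list up to 4 genes with the largest mean of the LFA and NTL changes among those called in both, else in 1. The lists comprise T cell receptor signaling, costimulation and checkpoint, regulatory T cell associated, helper subset, naive and homing, T cell receptor chain segments, cytotoxic and natural killer, macrophage, dendritic cell, B and plasma cell, thymocyte, lymph node stroma, innate lymphoid and mast, granulocyte, skeletal muscle, mesothelial, and liver and lung markers. Some genes of the helper subset list are not reported here.

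The labels give mice of all groups the same replicate numbers. Same-numbered NTL and control arrays deviated together (r = 0.22, 0.69, 0.11, and 0.33). They met the rule that each r be over 0.1, from the data alone, which does not show that the mice were matched. Control and NTL replicate 2, with r = 0.69, had the lowest index of their groups, at −1.96 and −2.10. Replicates 1 of both groups were on slide 2 and replicates 3 on slide 3, while replicates 4 were on slides 1 and 3. The part of index and slide in these r was not tested. The replicate block kept the calls of both members there. The other groups did not meet this rule, as with LFA and control (r = 0.58, −0.35, −0.51, and 0.04). Nothing in the labels says that a number marks a shared litter or day.

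Alternatives were quantile normalization, normexp background, no filter on dim probes, a filter on all 20 arrays, the mean of all probes of a gene, the methods' test with unequal variances, only the groups compared, the slide as a block, the replicate block, and leaving out each array. The scan runs were the slides, so a scan block is the same fit. The 5′ to 3′ index as a covariate, the 15 arrays of higher index, the levels relative to Cd3d alone, and the counts of list genes were chosen after seeing the data.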

Additional observations from a re-analysis of the deposited data

Results flagged for a closer look

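Cd3g in NTL replicate 2 was at −5.09, where the other NTL mice were between −0.14 and 0.45, and this gap made it stand out from its group. The same array held the highest value of the brightest Icos probe in its group, 0.47, where the others were between −1.01 and −0.76. NTL replicate 2 is 1 of the 5 arrays with a low 5′ to 3′ index, and the part of the index in both values was not tested. Without it, the NTL calls of Icos and Foxp3 were both lost. Of 75 sets of 4 arrays examined in this way, 2 held such a value (2.67%), and chance gives about 1 in 20.

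The change of Foxp3 against control was 0.95 in LFA mice and −0.24 in SFA mice, and every LFA mouse was above every SFA mouse. This difference of 1.1979 was tested as the LFA to SFA comparison and did not pass (limma adjusted p = 0.311).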

How the results depend on the processing

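Of the changes of single members, 2528 kept their direction and their side of the threshold, 29 lost a call, and 11 gained one over all alternatives, and 0 called changes turned. The 156 levels relative to CD3 did not cross the threshold, which a single gene at the smallest possible p could not cross after adjustment. The count of called members in LFA mice, 1 in the report, was 0 with quantile normalization, without the filter on dim probes, with only the groups compared, with the slide block, and with the replicate block, and 2 with the index as a covariate or on the 15 arrays of higher index. In NTL mice it was 1, in place of 2, with normexp, with the filter on all 20 arrays, and with the slide block, 3 with only the groups compared, and 4 with the index as a covariate. Between NTL and NTS mice it was 1 with normexp, with the filter on all 20 arrays, and with only the groups compared, 0 with the slide block, 3 with quantile normalization, and 4 with the index as a covariate. Between LFA and SFA mice it was 1, in place of 0, with the index as a covariate and on the 15 arrays. The cause was not tested, except that the filter on all 20 arrays removes Foxp3 from the test. Leaving out 1 array at a time gave 0 to 1 called members in LFA mice, 0 to 2 in NTL mice, 1 to 2 between NTL and NTS mice, and 0 in the other comparisons. The NTL count was 0 without control replicate 1 and without NTL replicate 2. The replicate block changed no call other than that of Icos in LFA mice.

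The 2 called members of the report kept their direction in every alternative: Icos changed by 1.37 to 2.36 in NTL mice (adjusted p of limma 0.000935 to 0.0566) and Foxp3 by 0.92 to 2.19 (0.00568, by the test of the methods over all groups together, to 0.0878). Quantile normalization moved the median of all probes from −0.28 to −0.08 in LFA mice and from −0.25 to −0.09 in NTL mice. In the authors' group means of normalized values Icos was 1.95 and 2.07 higher, and Foxp3 1.00008 and 1.83 higher, in LFA and NTL mice. The counts of called list genes moved as well, for T cell receptor signaling from 0 to 6 in LFA mice and from 2 to 7 in NTL mice, for costimulation and checkpoint from 1 to 8 and from 5 to 10, and for macrophage markers from 6 to 9 and from 7 to 9. Signal limits Ctla4, Cd3g, the second Cd8a probe, and the dimmest Icos probe, which were not well above background on every array. The same holds for the Cd247 junction probe (14 of 20 arrays) and the brightest Cd8a probe (18). Foxp3 and the second Icos probe were well above background on 19 arrays each.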

Other observations

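Other cell type lists were described in the same way. Of 10 dendritic cell markers, 1 rose in LFA mice and 3 in NTL mice. Ccl17, a chemokine that draws cells bearing Ccr4, rose by 2.09 ± 0.47 and 2.51 ± 0.47, and Itgax by 2.47 ± 0.47 in NTL mice. Flt3, at 1.04 ± 0.31 in NTL mice, was called at the threshold (limma adjusted p = 0.0454) and lost the call in 22 of 32 alternative settings, down to 0.24 with the mean of all its probes (limma adjusted p = 0.616). Of 7 lymph node stroma markers, the B cell chemokine Cxcl13 rose by 1.94 ± 0.50 and 2.05 ± 0.50, and Chst4, an enzyme of high endothelial venules, fell in NTL mice (−2.46 ± 0.49). The Cxcl13 call was lost in 10 of 32 alternative settings in LFA mice and in 4 of 32 in NTL mice. Of 10 innate lymphoid and mast cell markers, 1 was called, the histamine-forming enzyme Hdc, at 1.65 ± 0.26 and 1.32 ± 0.26.

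Of 11 B and plasma cell markers, 7 thymocyte markers, 9 granulocyte markers, 8 mesothelial markers, and 5 liver and lung markers, 0 were called in LFA or NTL mice against control. The median changes of the liver and lung markers were 1.74 and 2.02. Their mean level had an SD between mice of 4.22 in LFA and 1.89 in NTL mice. The further macrophage markers named were Cd5l, at 2.95 ± 0.79 and 2.86 ± 0.79 (the call lost in 17 and 6 of 32 settings), Fcgr1, at 2.59 ± 0.52 and 2.84 ± 0.52, and Cd14, at 2.30 ± 0.32 and 2.36 ± 0.32. Of the muscle markers, the fast troponin Tnnt3 and the fast myosin Myh1 fell in NTL mice (−1.97 ± 0.39 and −1.34 ± 0.27), and the skeletal actin Acta1 fell in LFA mice (−1.01 ± 0.25). The Acta1 call was lost in 13 of 32 alternative settings.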
